A study of Homo sapiens with 12 samples.

Results

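WNT signalling was followed through 55 genes of the count table, chosen by name as WNT ligands, Frizzled receptors and co-receptors, antagonists, ligand processing genes, beta-catenin pathway components, TCF/LEF factors and feedback regulators. The list was drawn up with earlier results of these data known. Shares of members that passed, set beside those of all genes, are therefore a description and not an independent test. All 55 were found among the 58381 genes counted, and 43 of them were among the 15836 genes that passed the filter on low counts and were tested. The RNA came from Hs578T and MDA-MB-231, established triple-negative breast cancer cell lines, as CD44 WT and CD44 KO cells (WT and KO below) with 3 libraries in each of the 4 groups. CD44 is a cell surface receptor for hyaluronan. All cells carried a doxycycline-inducible Cas9 from a puromycin-selected lentiviral vector. The CD44 KO cells were also transfected with guide RNAs against a pair of CD44 exons, whereas CD44 WT cells received the transfection reagent alone. After doxycycline, live CD29+ CD44- cells (CD44 KO) and CD29+ CD44+ cells (CD44 WT) were sorted and expanded as populations, not as single clones, and all were kept in low serum for a day before lysis. Whether the 3 libraries per group stem from separate cultures is not stated, so p-values measure only the spread between these libraries.

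WNT ligands are lipid-modified secreted proteins. In canonical signalling a ligand brings together a Frizzled receptor and LRP5 or LRP6, the destruction complex built on AXIN and APC stops degrading beta-catenin, and beta-catenin acts with TCF/LEF factors on target genes such as AXIN2, LEF1 and NKD1. Non-canonical ligands, of which WNT5A is the best known, act largely without beta-catenin through ROR1, ROR2, RYK and PTK7 on planar polarity, the cytoskeleton and migration. Both branches have been studied in breast cancer cells for their part in invasion.

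The sequence just before a transcription start is shown for 4 members that passed the test in Hs578T cells, a ligand, a co-receptor, an antagonist and a Frizzled receptor. All 4 lie on the minus strand of GRCh38.p14, and the RefSeq windows were cut where an annotated exon of the gene began: WNT5A chr3:55481399-55481648, ROR2 chr9:91950229-91950478, SFRP2 chr4:153789121-153789333 and FZD8 chr10:35642297-35642546. The windows run 5′ to 3′ on the strand of the gene, and capitals mark CTTTG, the core of the TCF/LEF motif, on either strand.
WNT5A: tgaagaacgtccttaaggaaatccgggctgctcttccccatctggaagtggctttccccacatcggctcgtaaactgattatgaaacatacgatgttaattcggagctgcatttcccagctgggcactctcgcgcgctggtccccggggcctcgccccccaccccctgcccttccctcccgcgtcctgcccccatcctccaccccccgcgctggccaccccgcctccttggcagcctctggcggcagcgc
ROR2: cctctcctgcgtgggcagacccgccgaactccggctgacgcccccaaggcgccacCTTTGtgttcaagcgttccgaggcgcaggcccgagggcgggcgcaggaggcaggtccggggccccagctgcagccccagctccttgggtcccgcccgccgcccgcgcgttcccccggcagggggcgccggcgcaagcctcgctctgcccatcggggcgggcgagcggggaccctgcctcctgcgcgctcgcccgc
SFRP2: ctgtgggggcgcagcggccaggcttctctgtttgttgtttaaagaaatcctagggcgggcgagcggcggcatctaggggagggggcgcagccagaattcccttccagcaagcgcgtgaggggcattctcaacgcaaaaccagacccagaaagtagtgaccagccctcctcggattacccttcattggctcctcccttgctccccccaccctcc
FZD8: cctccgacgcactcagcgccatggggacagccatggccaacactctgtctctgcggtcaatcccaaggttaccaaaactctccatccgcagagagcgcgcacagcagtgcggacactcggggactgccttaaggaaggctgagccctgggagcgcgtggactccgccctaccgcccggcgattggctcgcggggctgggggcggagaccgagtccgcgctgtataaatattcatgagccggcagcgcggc
The core was found once, in the window of ROR2. It stood in 42.1% of all 35116 RefSeq promoter windows of 250 bases, and in 37.8% of them cut to the 213 bases shown for SFRP2. Of the 55 members, 40 had a promoter window, and 10 of the 40 held the core. Of the 10 members that passed the test in Hs578T cells, 7 had a window and 2 of the 7 held it, ROR2 and LEF1. These member counts took any window of a gene and its full 250 bases, also where an exon of the gene overlapped them. The LEF1 window had 0 bases free of exons by the cut used above. Counts per gene are not like the shares of single windows. The TATA motif TATAAA, searched on both strands and not overlapping a match of the core, was found in the window of FZD8 and in 10.7% of all windows of 250 bases. These letters mark matches only, and no factor binding was measured.

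CD44 was counted first, as the check of the labels. It had 5919 to 7602 counts in the Hs578T WT libraries and 292 to 464 in KO, and 4036 to 4472 and 304 to 611 in MDA-MB-231. The total counts per library ran from 10257586 to 19725543. Levels are given as CPM (counts relative to the library total, scaled with TMM factors), or, where genes are compared with each other, as FPKM, which also divides by the exonic length. Both lines had high VIM and ZEB1 and near-absent CDH1 and PGR. EPCAM and KRT19 had at most 4 counts in any Hs578T library and at least 154 in each MDA-MB-231 library. Other markers of mesenchymal-like or epithelial breast lines were mixed. SPARC had 42725 counts over Hs578T WT and 18 over MDA-MB-231 WT, and FN1 had 177052 and 9694. ITGB1 had 28567 and 20705 counts over these groups, GATA3 185 and 114, and ESR1 29 and 1. The 3 haematopoietic markers summed to 0.347 to 0.576 CPM in Hs578T WT and 3.67 to 4.97 CPM in Hs578T KO, nearly all of it PTPRC, with CD68 and LYZ at or near 0. In MDA-MB-231 the sums were 0.6 to 0.802 and 0.339 to 1.09 CPM. The 3 endothelial markers summed to 11.9 to 14.2 CPM in Hs578T WT and 14.8 to 15.5 CPM in Hs578T KO, mostly PECAM1. Their sums in MDA-MB-231 were 1.69 to 3.33 CPM in WT and 1.78 to 4.15 CPM in KO. The part of these markers in the results below was not tested. Among the Hs578T WT libraries, replicate 3 lay nearest to the KO libraries on the second principal component (-29.1, against -50.8 and -41.8 for replicates 1 and 2 and 38.1 to 41.5 for KO).

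Most members differed between the lines before CD44 was deleted, as did most of all tested genes. The median absolute log2 difference was 0.838 over the tested members and 0.716 over all tested genes. Of the 43 tested members 34 (79.1%) differed between Hs578T WT and MDA-MB-231 WT (22 higher and 12 lower in Hs578T, edgeR, adjusted p of at most 0.01), against 61.5% of all tested genes (32.2% higher and 29.4% lower). The libraries of the lines did not overlap for 36 members (83.7%, 24 higher and 12 lower), against 71.8% of all genes (37.7% and 34.2%). SFRP2, a secreted antagonist, had 227 counts over the Hs578T group and 0 in MDA-MB-231, at least 69.4-fold more. WNT6 had 91 counts and 0, at least 27.8-fold more. RNF43, a ubiquitin ligase that removes Frizzled receptors from the surface, was 6.46 higher in Hs578T on the log2 scale, DKK3 4.93 and the ligand WNT9A 4.23. In the other direction DKK1, the secreted antagonist of LRP5 and LRP6, was lower in Hs578T by a log2 difference of -9.52, followed by WNT2B (-1.63), LEF1 (-1.45), FZD2 (-1.27) and FZD4 (-1.22).

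On the FPKM scale the ligands summed to 17.4 ± 0.922 in Hs578T WT (mean ± SD, n = 3 here and below) and 13.1 ± 0.662 in MDA-MB-231 WT. In Hs578T the sum was spread over WNT9A (22.9 ± 4.33% of it), WNT7B (20.2 ± 2.62%), WNT5B (17.8 ± 3.32%), WNT10B (14.02 to 16.67%) and WNT5A (14.4 ± 1.70%), whose neighbours in this order overlapped. In MDA-MB-231 it was mostly WNT7B (46.3 ± 6.16%) and WNT5B (38.7 ± 3.67%), which overlapped, and WNT5A held 2.47 ± 1.37%. The Frizzled sum was led by FZD6 (39.6 ± 2.64%) and FZD7 (30.2 ± 0.367%) in Hs578T and by FZD2 (39.8 ± 5.45%) and FZD6 (30.1 ± 6.58%) in MDA-MB-231. DKK1 made up 98.9 ± 0.160% of the antagonist sum in MDA-MB-231 and 0.695 ± 0.291% in Hs578T, where DKK3 held 71.6 ± 4.62%. This sum is not of secreted proteins alone, as it includes the DKK receptor KREMEN1 (17.4 ± 1.91% in Hs578T WT).

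**Figure D1:**
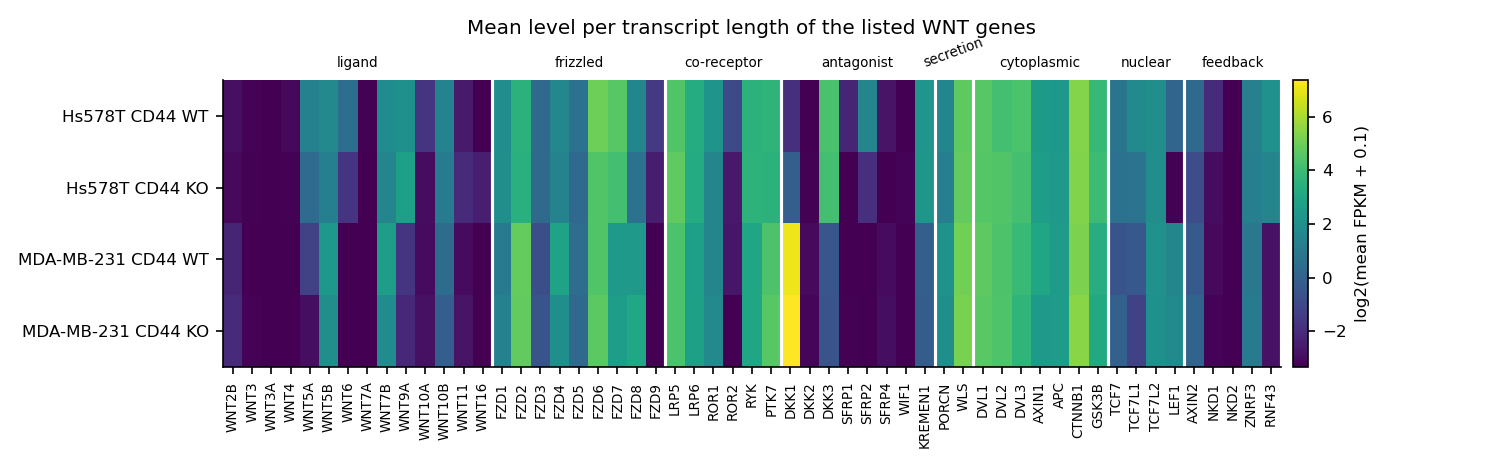
Mean FPKM of the 55 members in the 4 groups (3 libraries each), on a log2 scale after adding 0.1, with the genes in columns ordered by role. DKK1 is bright in both MDA-MB-231 rows and dark in Hs578T, LEF1 is dark in the Hs578T KO row alone, and 12 members are near 0 throughout and were not tested.

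In Hs578T cells the members that passed the test were all lower after CD44 deletion. Of 43 tested members 10 were lower in KO and 0 were higher (23.3% of members). Over all tested genes 7.51% passed, 3.86% lower and 3.64% higher. At an unadjusted p under 0.05 edgeR gave 16 members lower and 3 higher, against 27.4% of all tested genes, and DESeq2 called 12 lower and 2 higher, against 9.81% of all. In bulk RNA, fewer cells that express a gene and less RNA per cell cannot be told apart, here and below. The 10 were the ligands WNT5A and WNT6, the receptors FZD7, FZD8 and ROR2, the antagonist SFRP2, the TCF/LEF factors TCF7L1 and LEF1 and the feedback genes AXIN2 and NKD1. The median log2 fold change over the 43 members was -0.14, against -0.00162 over all tested genes, and WT and KO libraries did not overlap for 23 members (17 lower and 6 higher in KO), against 37.3% of all genes (18.6% lower and 18.7% higher). WNT6, WNT10A, ROR2, SFRP2 and NKD1 passed the filter on low counts only through libraries of 1 group, and 4 of these 5 were among the 10, which leaves 6 lower of 38 other members.

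The count depended on single libraries. It was 2 without WT replicate 1, 3 without WT replicate 2, 2 without KO replicate 1, 3 without KO replicate 2 and 2 without KO replicate 3, and the calls over all genes went from 1189 to between 605 and 705 in the same refits. Without WT replicate 3 it was 12, and replicate 3 was the lowest WT library for 9 of the 10 members.

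In MDA-MB-231 cells 4 of 43 tested members were lower in KO and 0 were higher (9.3%). Of all tested genes 4.62% passed, 2.65% lower and 1.97% higher. At an unadjusted p under 0.05 edgeR gave 9 members lower and 4 higher, against 23.4% of all tested genes, and DESeq2 called 4 lower and 1 higher, against 7.19% of all. The 4 were the ligands WNT5A and WNT7B, the receptor FZD4 and AXIN1, the scaffold of the destruction complex. The median over the members was 0.00, against -0.01 over all tested genes, and the libraries did not overlap for 20 members (11 lower and 9 higher), against 25.5% of all genes (13.7% lower and 11.8% higher). The count was 2 without KO replicate 2 or replicate 3, where the calls over all genes went from 731 to 355 and 459. Only WNT5A passed in both lines among the 13 members that passed in either. WNT6 and SFRP2 had 0 counts in every MDA-MB-231 library, so they could not be compared there.

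**Figure D2:**
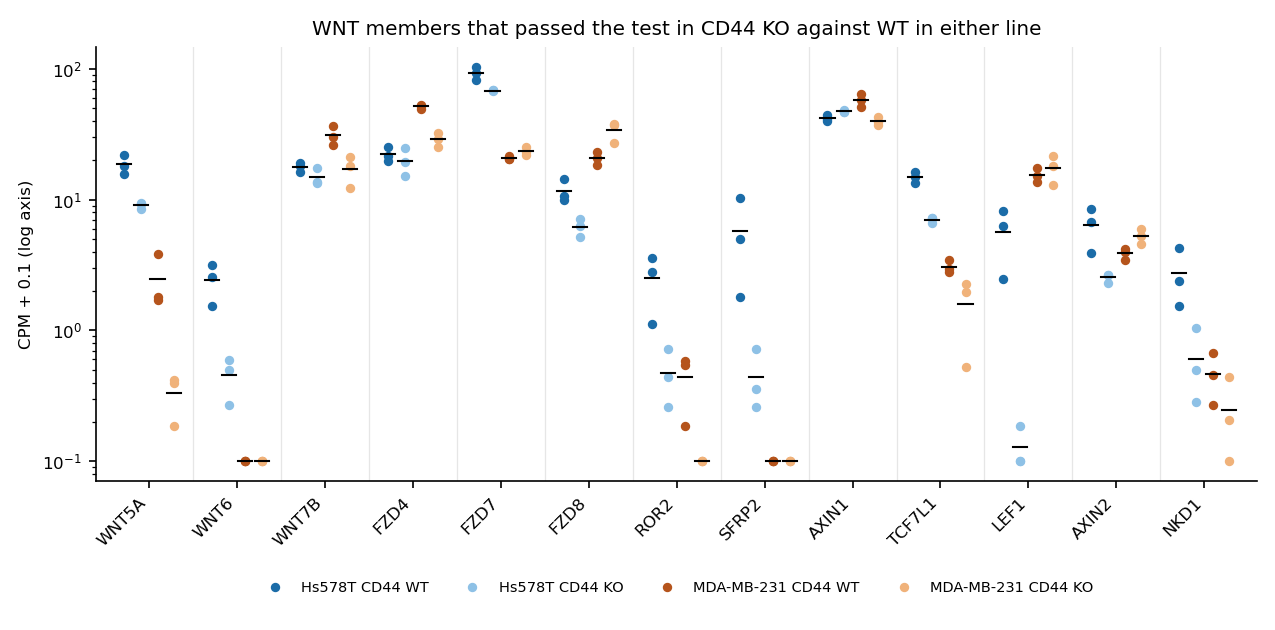
CPM of each library after adding 0.1 (log axis) for the 13 members that passed the test in at least 1 line, with a bar at the mean of the 3 libraries of each group. WNT5A lies lower in KO than in WT in both lines, while LEF1 is lost in Hs578T KO and has 12.7 to 21.6 CPM in the MDA-MB-231 libraries.

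Among the ligands WNT5A passed in both lines. WNT5A, which acts mainly in non-canonical signalling (ENSG00000114251.14, chr3:55465715-55490539), had 21.9, 18.1 and 15.7 CPM in the Hs578T WT libraries and 9.31, 9.12 and 8.44 CPM in KO. All KO libraries were under all WT libraries, and with 3 against 3 an exact two-sided permutation test cannot go below p = 0.1. The log2 fold change was -1.05 (SE 0.219, adjusted p = 0.004265 by edgeR after Benjamini-Hochberg adjustment, the method behind all adjusted p below), a 2.07-fold lower level. Without WT replicate 1 or 2 or any KO library this call was lost, with adjusted p of up to 0.02985. In MDA-MB-231 WNT5A stood at 1.71, 3.74 and 1.62 CPM in WT and at 0.0847, 0.318 and 0.296 CPM in KO. These groups did not overlap either, at levels well under those of Hs578T. The log2 fold change was -3.21 (SE 0.465, adjusted p = 0.0003654, 9.27-fold lower), and the call held without each library in turn (adjusted p of at most 0.003023). The difference between the lines, 2.16 on the log2 scale with the larger fall in MDA-MB-231, did not pass (adjusted p = 0.0181).

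WNT5B, the close relative of WNT5A, had 15.7, 14.7 and 9.90 CPM in Hs578T WT and 10.4, 8.14 and 11.3 CPM in KO, which overlapped. Its values in MDA-MB-231 were 24.2, 19.7 and 21.8 CPM in WT and 17.4, 16.4 and 14.8 CPM in KO, which did not overlap. Neither log2 fold change passed (-0.44, SE 0.176, adjusted p = 0.112 in Hs578T, and -0.43, SE 0.167, adjusted p = 0.1266 in MDA-MB-231).

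WNT6 (ENSG00000115596.3, chr2:218859821-218874233) had 3.05, 2.47 and 1.44 CPM in Hs578T WT and 0.401, 0.493 and 0.171 CPM in KO, without overlap. Its log2 fold change was -2.64 (SE 0.458, adjusted p = 0.002566), lost without WT replicate 1 or 2 or any KO library (adjusted p of up to 0.01533). The 20 tested neighbours of WNT6 on the chromosome had a median of -0.24, with 19 of 20 below 0. WNT7B, a ligand mostly tied to canonical signalling (ENSG00000188064.9, chr22:45920362-45977129), had 26.1, 30.2 and 36.1 CPM in MDA-MB-231 WT and 12.2, 18.1 and 21.2 CPM in KO. The groups did not overlap, and the log2 fold change was -0.84 (SE 0.179, adjusted p = 0.007044). That call was lost with each line fitted alone and without any of 8 libraries, MDA-MB-231 WT replicate 3, the unnumbered WT library, KO replicates 1 and 2, Hs578T WT replicate 2 and the 3 Hs578T KO libraries (adjusted p of up to 0.04347). All 12 libraries share 1 estimate of the spread. In Hs578T WNT7B had 16.2, 17.9 and 18.9 CPM in WT and 13.5, 13.3 and 17.3 CPM in KO, which overlapped (log2 fold change -0.27, adjusted p = 0.3892).

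The remaining ligands did not pass in either line. WNT9A had 14.2, 14.7 and 18.1 CPM in Hs578T WT and 26.9, 19.1 and 31.1 CPM in KO, with a log2 fold change of 0.71 (SE 0.174) just outside the threshold (adjusted p = 0.01212). Its share of the summed ligand FPKM in Hs578T was 22.9 ± 4.33% in WT and 41.6 ± 3.72% in KO, and that of WNT5A was 14.4 ± 1.70% and 8.03 ± 1.59%. The summed ligand FPKM itself was 17.4 ± 0.922 and 15.4 ± 2.46 in Hs578T, which overlapped, and 13.1 ± 0.662 and 8.38 ± 0.564 in MDA-MB-231, which did not. WNT10A had 28 counts over Hs578T WT and a fitted change of -2.76 (adjusted p = 0.0185). WNT2B and WNT10B had log2 fold changes from -0.90 to 0.28 in both lines.

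Among the Frizzled receptors, which bind WNT proteins through a cysteine-rich domain, FZD8 differed between the lines in its change. FZD8 (ENSG00000177283.7, chr10:35638249-35642278) had 14.2, 10.5 and 9.82 CPM in Hs578T WT and 5.05, 7.03 and 6.14 CPM in KO. In MDA-MB-231 it had 18.3, 20.9 and 22.9 CPM in WT and 27.1, 37.3 and 37.4 CPM in KO. The groups were apart in both lines, lower in KO of Hs578T and higher in that of MDA-MB-231. Log2 fold changes were -0.92 (SE 0.1897, adjusted p = 0.004002) and 0.72 (SE 0.165, adjusted p = 0.01168), of which the second did not pass. Their difference of -1.64 did (SE 0.251, adjusted p = 0.0007112) and was called without each library in turn (adjusted p of at most 0.003371). The call in Hs578T was lost when WT replicate 1 or KO replicate 1 or 3 was left out (adjusted p of up to 0.02965). The 20 tested neighbours of FZD8 had a median of 0.15 in Hs578T and 0.51 in MDA-MB-231, where 3 of the 20 were below 0.

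FZD7 (ENSG00000155760.2, chr2:202034587-202038445) had 104, 93.0 and 82.3 CPM in Hs578T WT and 68.5, 68.2 and 67.0 CPM in KO, without overlap. The log2 fold change was -0.45 (SE 0.0940, adjusted p = 0.004265), and it was lost without WT replicate 1 or 2 or any KO library (adjusted p of up to 0.03203). FZD7 in MDA-MB-231 had 20.2 to 21.6 CPM in WT and 21.7 to 24.9 CPM in KO (log2 fold change 0.16, adjusted p = 0.3912), and the difference between the lines of -0.61 did not pass (adjusted p = 0.01215). FZD4, which also serves as the receptor of norrin (ENSG00000174804.3, chr11:86945679-86955391), had 52.7, 52.0 and 49.5 CPM in MDA-MB-231 WT and 25.3, 32.4 and 29.0 CPM in KO. All KO libraries were lower, with a log2 fold change of -0.83 (SE 0.153, adjusted p = 0.00282), lost without KO replicate 1 or 3 (adjusted p of up to 0.01684). In Hs578T FZD4 overlapped, with 19.7 to 25.3 CPM in WT and 14.9 to 24.7 CPM in KO (adjusted p = 0.5518). FZD1, FZD2, FZD3, FZD5 and FZD6 passed in neither line, with log2 fold changes from -0.54 (FZD6, Hs578T, adjusted p = 0.0385) to 0.36 (FZD1, MDA-MB-231). The summed FPKM of the Frizzled receptors was 79.8 ± 8.36 in Hs578T WT and 60.7 ± 0.327 in KO, without overlap, and 70.8 ± 5.77 and 74.8 ± 4.36 in MDA-MB-231, with overlap.

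Of the co-receptors only ROR2 passed. ROR2, the tyrosine kinase-like receptor for WNT5A (ENSG00000169071.14, chr9:91563091-91950162), had 3.47, 2.71 and 1.02 CPM in Hs578T WT and 0.160, 0.617 and 0.341 CPM in KO. The groups did not overlap, and the log2 fold change was -2.61 (SE 0.559, adjusted p = 0.00634). Without WT replicate 1 or 2 or any KO library the call was lost (adjusted p of up to 0.03824). MDA-MB-231 had 12 ROR2 counts over the WT group and 0 over KO, at least 4.64-fold fewer by the floor of 3 counts over a group, and this did not pass (adjusted p = 0.06214). Its relative ROR1 had 36.7, 31.4 and 23.4 CPM in Hs578T WT and 16.7, 20.4 and 19.4 CPM in KO, apart but outside the threshold (log2 fold change -0.69, SE 0.188, adjusted p = 0.0210). ROR1 in MDA-MB-231 overlapped, with 12.8 to 21.9 CPM in WT and 20.2 to 22.1 CPM in KO (log2 fold change 0.19, adjusted p = 0.6035). The canonical co-receptors LRP5 and LRP6 and the non-canonical RYK and PTK7 had log2 fold changes between -0.08 and 0.29, and none passed.

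The secreted antagonists bind WNT proteins (SFRP and WIF families) or LRP5 and LRP6 (DKK1). SFRP2 (ENSG00000145423.4, chr4:153780592-153789120) had 10.2, 4.94 and 1.69 CPM in the Hs578T WT libraries, a wide spread, and 0.160, 0.617 and 0.256 CPM in KO. No KO library reached the lowest WT library. The log2 fold change was -3.92 (SE 0.688, adjusted p = 0.002771), lost without any of the 3 KO libraries (adjusted p of up to 0.01893). SFRP1, below the filter, had 22 counts over Hs578T WT and 0 over KO, at least 7.72-fold fewer. DKK1 stood the other way in Hs578T, with 0.277, 0.411 and 0.508 CPM in WT and 1.52, 1.79 and 2.22 CPM in KO (log2 fold change 2.20, SE 0.563), outside the threshold (adjusted p = 0.01426). In MDA-MB-231, where DKK1 was abundant, the groups overlapped at 281 to 318 CPM in WT and 249 to 507 CPM in KO. DKK3 and the DKK receptor KREMEN1 had log2 fold changes between -0.12 and 0.06. PORCN, which attaches the lipid to WNT proteins, and WLS, which carries them to the surface, did not pass in either line (-0.23 to 0.12).

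Of the cytoplasmic components, which hold beta-catenin in check or relay the signal to it, AXIN1 alone passed. CTNNB1, the gene of beta-catenin, had 490, 498 and 491 CPM in Hs578T WT and 463, 476 and 479 CPM in KO (log2 fold change -0.06, SE 0.0805, adjusted p = 0.6921). Values in MDA-MB-231 were 399, 475 and 467 CPM in WT and 502, 528 and 547 CPM in KO (log2 fold change 0.23, SE 0.0806, adjusted p = 0.08629). The libraries did not overlap in either line, but neither change passed. AXIN1 (ENSG00000103126.14, chr16:287440-352673) had 64.1, 57.1 and 50.5 CPM in MDA-MB-231 WT and 42.5, 38.9 and 37.2 CPM in KO, all lower, with a log2 fold change of -0.53 (SE 0.1003, adjusted p = 0.003207). The call was lost without KO replicate 2 or 3 (adjusted p of up to 0.02196) and with each line fitted alone (adjusted p = 0.03154). In Hs578T AXIN1 had 40.0, 44.4 and 40.9 CPM in WT and 47.9, 46.5 and 46.9 CPM in KO (log2 fold change 0.17, adjusted p = 0.2877). The difference between the lines was 0.71 (SE 0.142, adjusted p = 0.00511) and was lost without any Hs578T library or without MDA-MB-231 KO replicate 2 or 3 (adjusted p of up to 0.01814). The Dishevelled genes DVL1, DVL2 and DVL3, APC and GSK3B had log2 fold changes between -0.28 and 0.28 with no call.

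LEF1 had the largest fitted change of the members in either line. LEF1, a TCF/LEF factor whose gene is also a target of beta-catenin (ENSG00000138795.9, chr4:108047545-108168956), had 116, 75 and 28 counts in the Hs578T WT libraries and 0, 0 and 1 in KO. The ratio of the summed counts, scaled for library size, was 230.5 (exact 95% counting interval 40.94 to 9146, counting error only). The fitted log2 fold change of -7.35 depends on the prior count (SE 0.821, adjusted p = 1.373e-05), and the call held without each library in turn (adjusted p of at most 0.0003161). In MDA-MB-231 LEF1 had 17.4, 14.97 and 13.5 CPM in WT and 21.6, 17.9 and 12.7 CPM in KO, which overlapped (log2 fold change 0.19, SE 0.279, adjusted p = 0.7441). The difference between the lines of -7.54 passed (SE 0.927, adjusted p = 6.1e-05, at most 0.0007125 without each library in turn). The 20 tested neighbours of LEF1 had a median of 0.15 in Hs578T, with 2 below 0. Around the other members called in Hs578T, apart from WNT6 and FZD8, such medians ran from -0.17 (ROR2, 15 of 20 below 0) to 0.19 (SFRP2, 5 below 0). Around the members called in MDA-MB-231 they ran from -0.16 (AXIN1, 14 of 18 below 0) to 0.07 (WNT5A), with -0.16 for FZD4 (13 below 0).

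TCF7L1, often a repressor of WNT targets (ENSG00000152284.4, chr2:85133410-85310388), had 13.2, 14.9 and 16.2 CPM in Hs578T WT and 7.14, 6.47 and 7.08 CPM in KO. These did not overlap, with a log2 fold change of -1.10 (SE 0.241, adjusted p = 0.006103), lost without any of the 6 Hs578T libraries (adjusted p of up to 0.0381). The MDA-MB-231 values were 2.83, 2.67 and 3.33 CPM in WT and 0.424, 1.85 and 2.17 CPM in KO, with a log2 fold change of -0.97 (SE 0.335) that did not pass (adjusted p = 0.08472). The difference of -0.13 between the lines did not pass either (SE 0.415). TCF7L2 had log2 fold changes of 0.00 and -0.04, and TCF7 had 0.64 in MDA-MB-231 (adjusted p = 0.0287). On the FPKM scale LEF1 went from 10.4 ± 5.13% of the TCF/LEF sum in Hs578T WT to 0.0752 ± 0.130% in KO, TCF7L1 from 34.5 ± 5.46% to 22.8 ± 2.30% and TCF7L2 from 38.8 ± 1.48% to 54.7 ± 1.66%.

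The feedback genes AXIN2 and NKD1, which are switched on by beta-catenin and act against it, were lower in Hs578T KO. AXIN2 (ENSG00000168646.12, chr17:65528563-65561647) had 8.39, 6.66 and 3.81 CPM in WT and 2.57, 2.22 and 2.56 CPM in KO. The groups did not overlap, with a log2 fold change of -1.37 (SE 0.258, adjusted p = 0.002034), lost without WT replicate 1 or 2 or KO replicate 2 or 3 (adjusted p of up to 0.0163). In MDA-MB-231 AXIN2 had 3.34, 4.10 and 3.89 CPM in WT and 5.17, 4.45 and 5.83 CPM in KO, all of them above WT, without a call (log2 fold change 0.43, SE 0.252, adjusted p = 0.3264). The difference of -1.81 passed (SE 0.361, adjusted p = 0.00492), but was lost without any of 8 libraries, 5 of Hs578T (all but WT replicate 3) and 3 of MDA-MB-231 (WT replicate 3 and KO replicates 1 and 3), with adjusted p of up to 0.01861. Of the exonic length of AXIN2 25.2% is shared with ENSG00000266076 on the same strand, and fragments there were not assigned.

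NKD1, which binds Dishevelled (ENSG00000140807.6, chr16:50548330-50649249), had 2.29, 4.195 and 1.44 CPM in Hs578T WT and 0.401, 0.185 and 0.938 CPM in KO, without overlap. Its log2 fold change was -2.44 (SE 0.559, adjusted p = 0.007551), lost without WT replicate 1 or 2, KO replicate 1 or 2 or MDA-MB-231 KO replicate 2 (adjusted p of up to 0.05327). RNF43 had 32.7, 31.9 and 27.7 CPM in Hs578T WT and 20.1, 21.5 and 21.6 CPM in KO, apart but outside the threshold (log2 fold change -0.55, adjusted p = 0.0214). Its partner ZNRF3 had -0.07 and 0.14 in the lines without a call.

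**Figure D3:**
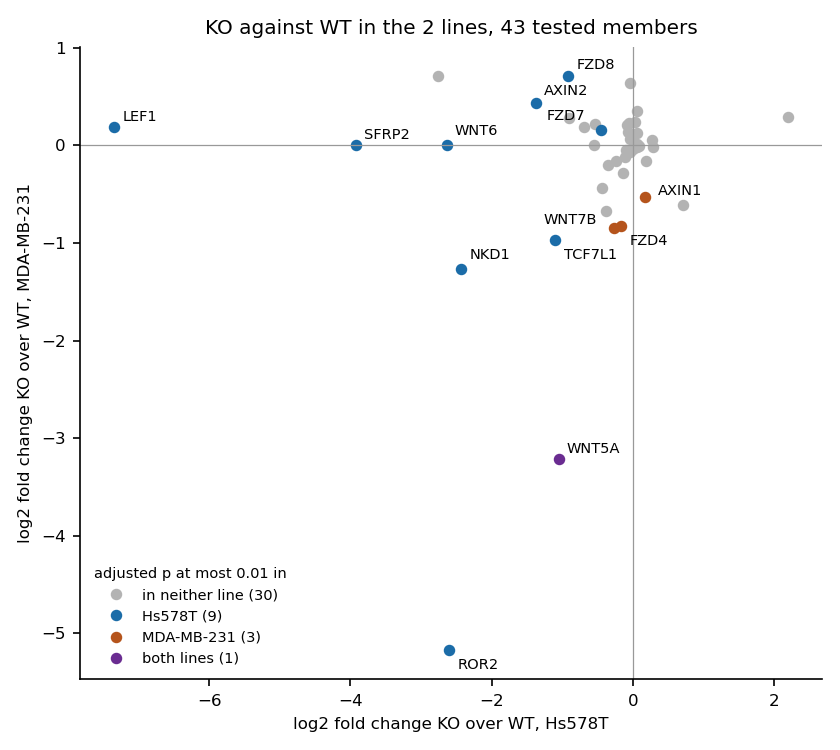
Log2 fold change from WT to KO in Hs578T (horizontal) and in MDA-MB-231 (vertical) for the 43 tested members, coloured by the line in which the adjusted p was at most 0.01. WNT5A is the 1 member called in both, LEF1 lies far left near 0 on the vertical axis, WNT6 and SFRP2 are drawn at 0 because MDA-MB-231 had no counts, and ROR2 is low on the vertical axis from 12 counts against 0.

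Whether the lines responded differently was tested as the difference of their changes. It passed for 4 of the 43 members, LEF1, AXIN2 and FZD8 (lower in Hs578T relative to MDA-MB-231) and AXIN1 (the reverse), against 4.12% of all tested genes (1.79% lower and 2.33% higher). Of the 9 members called in Hs578T alone 3 had a called difference, and of the 3 called in MDA-MB-231 alone 1 had. For the other members called in 1 line a difference between the lines was not shown. The count was 2 without any Hs578T library but WT replicate 3, and without MDA-MB-231 KO replicate 3. Calls over all genes went from 653 to between 396 and 436 in these Hs578T refits and to 532 in that of MDA-MB-231. Fitted changes did not share a sign in the lines for 22 of 43 members. WNT6 and SFRP2 are counted here, although their change in MDA-MB-231 was 0 for want of any count. The share of all genes is not given here.

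The non-canonical members were compared with the canonical ones by counts and medians. Of 7 non-canonical members (WNT5A, WNT5B, WNT11, ROR1, ROR2, RYK and PTK7) 6 were tested, of which 2 were lower in Hs578T KO (WNT5A and ROR2) and 1 in MDA-MB-231 (WNT5A). Their log2 fold changes had a median of -0.57 in Hs578T (5 below 0 and 1 above) and, in MDA-MB-231, of -0.21 (3 below and 3 above). Of 23 canonical members 19 were tested, of which 4 were lower in Hs578T (LEF1, NKD1, AXIN2 and TCF7L1) and 2 in MDA-MB-231 (WNT7B and AXIN1), with medians of -0.07 and 0.00. The other 18 tested members, among them all Frizzled receptors, gave 4 and 1 lower with medians of -0.13 and 0.00. Medians of so few genes are a description, and the difference between the branches was not tested.

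**Figure D4:**
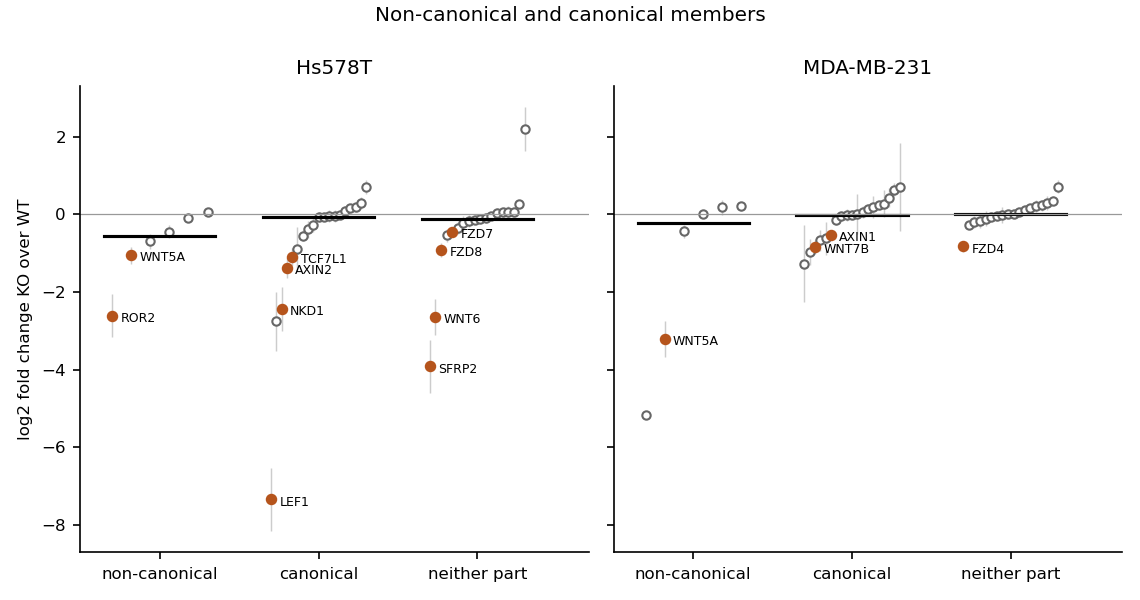
Log2 fold change from WT to KO for each tested member (points with SE where one could be computed), in order of size within the non-canonical, canonical and remaining members of each line. Filled points had an adjusted p of at most 0.01, thick bars mark the medians, and the non-canonical median is the lowest of the 3 in both lines (-0.57 and -0.21). In MDA-MB-231 3 non-canonical members lie below 0 and 3 above, and the branches were not tested against each other.

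A wider list of 99 other WNT pathway genes, also chosen with earlier results of these data known, was measured alongside, and 71 were tested. In Hs578T 12 passed (16.9%, against 7.51% of all tested genes), 7 lower and 5 higher in KO. In MDA-MB-231 6 passed (8.45%, against 4.62% of all), 3 lower and 3 higher. The difference between the lines passed for 8 (11.3%, against 4.12% of all). None of the 19 tested genes of the remaining beta-catenin machinery passed in either line by edgeR or by DESeq2 (5 in Hs578T and 4 in MDA-MB-231 had an unadjusted p under 0.05, as did 27.4% and 23.4% of all tested genes). Among 13 tested beta-catenin target genes 5 passed in Hs578T (2 lower and 3 higher) and 3 in MDA-MB-231 (1 lower and 2 higher), beside the same 7.51% and 4.62% of all tested genes.

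GPC4, a glypican that holds WNT proteins at the cell surface, had 798 counts over Hs578T WT and 1 over KO, a ratio of 840 (exact 95% counting interval 150.3 to 33220). In MDA-MB-231 it had 13.1, 11.3 and 10.9 CPM in WT and 0.339, 0.636 and 0.296 CPM in KO (log2 fold change -4.65, SE 0.49, adjusted p = 2.508e-05). Like WNT5A it was lower in both lines. The 20 tested neighbours of GPC4 had a median of -0.47 in Hs578T, with 17 below 0, and of -0.06 in MDA-MB-231, with 12 below 0. CLDN1, a tight junction gene, went in opposite directions, from 1.11, 0.411 and 0.423 CPM to 10.8, 14.5 and 8.53 CPM in Hs578T (log2 fold change 4.06) and from 13.4, 12.7 and 12.1 CPM to 3.47, 3.18 and 1.68 CPM in MDA-MB-231 (-2.16), and the difference of 6.21 passed (adjusted p = 6.961e-07). TWIST1, a factor of mesenchymal cells, was higher in Hs578T KO (23.4 to 27.98 CPM, against 0.931 to 2.08 CPM) and had 0 counts in MDA-MB-231. PRICKLE1, of the planar polarity pathway, was lower in Hs578T KO (0.401 to 1.28 CPM, against 3.38 to 7.56 CPM), and so was KREMEN2, a DKK receptor (0.0802 to 0.555 CPM, against 1.97 to 2.54 CPM). In MDA-MB-231 KO, DAAM2, a formin downstream of Dishevelled, was lower (2.20 to 2.77 CPM, against 13.1 to 16.97 CPM), while the target genes TNFRSF19 (8.39 to 11.2 CPM, against 3.94 to 4.90 CPM) and EPHB2 (80.8 to 83.5 CPM, against 46.1 to 48.5 CPM) were higher.

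12 members were too rare to test. WNT3A and NKD2 had no count in any library, and WNT7A and WIF1 had 1 count each over all 12 libraries. WNT3, WNT4, WNT11, WNT16, FZD9, DKK2, SFRP1 and SFRP4 had 3 to 30 counts in all. The fit reported here did not test them. Beside SFRP1, WNT16 had 0 counts over Hs578T WT and 11 over KO, at least 3.48-fold more.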

How the data were processed

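The 12 libraries were stranded polyA-selected RNA-seq libraries, read as paired 50-base ends on 1 lane. The authors aligned them with HISAT2 2.1.0 to GRCh38 and counted fragments with featureCounts 1.6.2 on GENCODE annotation, on the stated strand and without fragments of several genes. The deposited values are whole-number counts per gene with no normalization, for 58381 genes, and every library was mapped to a group. 1 MDA-MB-231 CD44 WT library has a name that fits the labels of 2 replicates and is left unnumbered.

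Tested genes exceeded 1 CPM in 2 or more libraries and had 300 nt or more of exons. The paper words the length limit the other way round. All 12 libraries were fitted with 4 group means in edgeR 4.0.16 under R 4.3.3 (TMM factors, quasi-likelihood F test, legacy fit), and p-values were adjusted by Benjamini-Hochberg over all 15836 genes. A gene passed at an adjusted p of at most 0.01. The lines' CD44 KO cells were each compared with their CD44 WT cells, and these changes with each other as the difference (Hs578T minus MDA-MB-231). The CD44 WT cells of the lines were compared too. Fold changes against a group at 0 are bounds that put the group at 3 counts. FPKM used the deposited exonic lengths. The neighbours of a gene are the 10 tested genes on each side, or fewer at a chromosome end.

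The members, the canonical and non-canonical parts and the wider list were chosen with earlier results of these data known. Full values were given for members that passed in a KO contrast or in the difference between the lines, and for WNT5A, WNT5B, ROR1, ROR2, AXIN2, LEF1 and CTNNB1; of the CD44 WT contrast the 5 largest in each direction, and of the wider list the 5 largest per line. Other members named with values, such as WNT9A and DKK1, were chosen after their values were seen. On simulated Hs578T counts of 15836 genes, 93 of 100 genes changed by 2 and 74 of 100 changed by 1 on the log2 scale were recovered, with 7 false calls. The changed genes were drawn from those with a mean over 1 CPM across the 4 groups, so these rates do not cover rarer members. The alternatives were DESeq2 1.42.0, RLE factors, no filter on low counts, no length limit, the newer fit, robust estimation, an adjusted p of 0.05, replicate blocks, each line alone and each library left out. Promoter windows came from RefSeq (GRCh38.p14). Proteins were not used here.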

Additional observations from a re-analysis of the deposited data

Results flagged for a closer look

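For 4 members the change with CD44 KO differed between the lines by the test of the difference itself (Hs578T minus MDA-MB-231, edgeR's quasi-likelihood test, Benjamini-Hochberg adjustment). The difference was -7.54 for LEF1 (adjusted p = 6.1e-05), from -7.35 in Hs578T and 0.19 in MDA-MB-231. It was -1.64 for FZD8 (adjusted p = 0.0007112), whose 6 Hs578T libraries and 6 MDA-MB-231 libraries separated CD44 WT from CD44 KO in opposite directions. AXIN2 gave -1.81 (adjusted p = 0.00492) and AXIN1 0.71 (adjusted p = 0.00511). Libraries of CD44 WT and CD44 KO were apart in opposite directions in the lines for AXIN2 and AXIN1 too.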

How the results depend on the processing

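The number of members called in Hs578T, 10 as reported, was 16 without the filter on low counts, where 53 members were tested, and 17 at the threshold of 0.05 (14 lower and 3 higher), and ran from 2 to 13 when 1 library was left out. These left-out refits called 3.84% to 10.7% of all tested genes, against 7.51% with all libraries. In MDA-MB-231 the reported 4 became 2 with each line fitted alone and 2 to 5 with 1 library left out. The left-out refits called 2.25% to 4.83% of all tested genes in MDA-MB-231, against 4.62% with all libraries. The difference between the lines, reported for 4, was called for 7 with DESeq2, 8 without the filter on low counts, 8 at the threshold of 0.05, and 2 to 5 with 1 library left out. Of all tested genes DESeq2 called 7.45% for the difference and the left-out refits 2.52% to 5.1%, against 4.12% as reported. For the other alternatives, the replicate blocks among them, the share of all genes is not given here. Those member counts are therefore not set against it. The 34 members that differed between the CD44 WT lines stayed within 26 to 37 under every alternative run. Over 18 called results and 392 refits, the fitted direction reversed in 0, and 77 refits lost the call. LEF1 in Hs578T, WNT5A in MDA-MB-231 and the differences of LEF1 and FZD8 kept their calls in every alternative run.

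Pairing of the libraries was looked at through correlations of deviations from the group means. By replicate number they were -0.0957 to 0.0222 among the Hs578T libraries and 0.00793 to 0.164 among those of MDA-MB-231. By consecutive library numbers they were 0.0315 to 0.134 and 0.00793 to 0.164, all weak but above 0. In MDA-MB-231 both numberings make the same pairs, once the unnumbered WT library is given the replicate number left over. Its correlations are therefore the same values given again. With the replicate number as a block 7 members were called in Hs578T, 4 in MDA-MB-231, 4 for the difference and 26 between the CD44 WT lines, and with consecutive library numbers as the block 11, 5, 4 and 28. The 4 differences were not the reported 4 under either block: AXIN2 was no longer among them (adjusted p = 0.01147 with the replicate number and 0.01022 with the library numbers) and WNT5A was (0.006118 and 0.006293). In Hs578T the replicate-number block lost FZD7 (0.01028), ROR2 (0.01127), TCF7L1 (0.01156) and NKD1 (0.0331) and added DKK1 (0.006491), which the library-number block added too (0.00651). In MDA-MB-231 the library-number block added FZD8 (0.00264).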
